A study of Rattus norvegicus with 20 samples.

Results

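A set of 8 genes of neurotrophin and GDNF family signaling was followed in rat dorsal root ganglia (DRG). The set was taken by gene symbol from the 39747 genes of the count table, with earlier results of these data known. The 8 members are the ligand gene Bdnf, the neurotrophin receptor genes Ntrk2, Ntrk3 and Ngfr, and the GDNF family receptor genes Ret, Gfra1, Gfra2 and Gfra3. Each was counted in 20 libraries.

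Neurotrophins are secreted survival and plasticity factors that act through Trk receptor tyrosine kinases and through p75, the shared low-affinity receptor encoded by Ngfr. Ligands of the GDNF family first bind a GPI-anchored co-receptor of the GFRα type, and the pair then recruits the receptor tyrosine kinase RET. In the DRG these receptors divide sensory neurons into classes, with TrkC (Ntrk3) in proprioceptors, TrkB (Ntrk2) in mechanoreceptors, RET with GFRα2 in non-peptidergic nociceptors and GFRα3 in peptidergic nociceptors. BDNF is made by sensory neurons themselves and is released from their terminals in the spinal cord.

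Wild-type female Sprague-Dawley rats were fed a soy oil diet (SOD) or a fish oil diet rich in omega-3 fatty acids (FOD) for 4 weeks before surgery. Chronic constriction injury (CCI) was made with 4 loose ligatures on the sciatic nerve of the left leg, which sham surgery (CT) exposed without tying. The study lists the rats at 8 to 10 weeks old before it describes acclimatization and diet, and gives no age at surgery. The diets were to go on for 4 weeks after surgery. Collection of the DRG 1 week after CCI is stated with the sequencing results of the study, while its methods give no collection time. The left DRG was sequenced from 7 sham rats (4 SOD-CT, 3 FOD-CT) and 7 injured rats (3 SOD-CCI, 4 FOD-CCI). The right (contralateral) DRG was sequenced in 3 of the rats of each CCI group, so that 14 rats gave 20 libraries and no sham rat gave a right DRG. Which spinal level the ganglia came from is not given in the sources used here. A ligated sciatic nerve can leave part of the axons of a ganglion intact, so injured and spared neurons may have been sequenced together. Their shares were not measured.

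Library totals ran from 22547190 to 54437581 counts, and levels are given as counts per 1000000 of that total (CPM). Several libraries stood apart in transcripts of other tissues. The summed level of 10 spinal cord genes was 4416 CPM in FOD-CT replicate 1, 2919 CPM in FOD-CCI replicate 1 and 4941 CPM in FOD-CCI-contralateral replicate 1, against 18.1 to 83.6 CPM in all other libraries. The 8 skeletal muscle genes summed to 91999 CPM in SOD-CT replicate 1, 19230 CPM in FOD-CT replicate 2, 5223 CPM in SOD-CT replicate 4 and 1689 CPM in FOD-CT replicate 1, and to 5.32 to 465 CPM in the other sham libraries. In the left CCI libraries they summed to 6.79 to 189 CPM. The highest muscle sums of the left side were thus in sham libraries, and all FOD-CT libraries lay above FOD-CCI. SOD-CT replicates 2 and 3, at 141 and 5.32 CPM, did not lie above the CCI range. Contralateral libraries had 7 to 7333 CPM. FOD-CCI-contralateral replicate 1 also went against its DRG label, with 0 counts of the nociceptor channel gene Trpv1 and 111 CPM of the peripheral neuron gene Prph. A further check concerned the injury itself. The 10 nerve injury genes, among them Atf3, Gal and Sox11, summed to 2156 to 2634 CPM in SOD-CCI and to 267 to 711 CPM in SOD-CT, but to 388 CPM in the library labelled FOD-CCI replicate 1, within the sham range. The other 3 FOD-CCI libraries had 1343 to 3665 CPM. Results that rest on the library labelled FOD-CCI replicate 1 are therefore given with and without it. Since the nerve injury genes are themselves an outcome of CCI, the values without it stand beside those with it and do not replace them.

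Promoter windows of 300 bases from RefSeq (build GRCr8), of which 50 lie after the annotated start, were found for 4 of the 8 members. Bdnf had 6 windows, and Ret, Gfra1 and Gfra3 had 1 each. The windows shown are those of Bdnf and Gfra1, the genes with the largest differences after CCI, and capitals mark the motif matches. They cover chr3:116637608-116637907 (plus strand) for Bdnf and chr1:267555762-267556061 (minus strand) for Gfra1.
Bdnf: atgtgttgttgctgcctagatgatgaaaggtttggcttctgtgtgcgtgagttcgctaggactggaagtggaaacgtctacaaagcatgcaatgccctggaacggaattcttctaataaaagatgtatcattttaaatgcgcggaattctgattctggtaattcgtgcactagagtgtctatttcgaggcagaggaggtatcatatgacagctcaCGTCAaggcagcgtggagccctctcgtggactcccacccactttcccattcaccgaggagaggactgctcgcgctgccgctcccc
Gfra1: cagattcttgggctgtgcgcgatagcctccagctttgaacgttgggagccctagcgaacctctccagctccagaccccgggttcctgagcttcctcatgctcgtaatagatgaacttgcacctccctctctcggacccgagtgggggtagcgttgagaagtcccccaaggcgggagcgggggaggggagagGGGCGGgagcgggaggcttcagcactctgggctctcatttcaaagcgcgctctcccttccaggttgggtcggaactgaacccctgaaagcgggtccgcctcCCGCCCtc
In the Bdnf window CGTCA, a core motif of the cAMP response element, was found 35 bases before the start, and 21.2% of 33469 rat promoter windows held it on either strand. It was the only member window with this motif. In the Gfra1 window GGGCGG, a GC box, was found 59 bases before the start, with its reverse complement CCGCCC after the start. The GC box was also found in the Gfra3 window and in a Bdnf window not shown, and it occurs in 33.1% of windows. The full cAMP element TGACGTCA (1.83% of windows), which would contain CGTCA, and the AP-1 motif TGACTCA (4.63%) were found in no member window on either strand. Bdnf transcripts begin at several alternative first exons, and counts per gene do not tell which of the 6 starts was used.

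Compared per length in FPKM, Ngfr was the most abundant member, with a median of 180 FPKM over the 20 libraries. Ret followed at 73.8, Gfra1 at 41.5, Gfra3 at 32.0, Ntrk2 at 21.0, Gfra2 at 19.3, Bdnf at 4.79 and Ntrk3 at 3.07 FPKM. Ngfr lay above Ret in 18 of 20 libraries and Gfra2 above Bdnf in 19. Ntrk2 and Gfra2 were not separated, since Ntrk2 was the higher of the pair in 11 of 20 libraries, and Bdnf lay above Ntrk3 in 12.

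**Figure D1:**
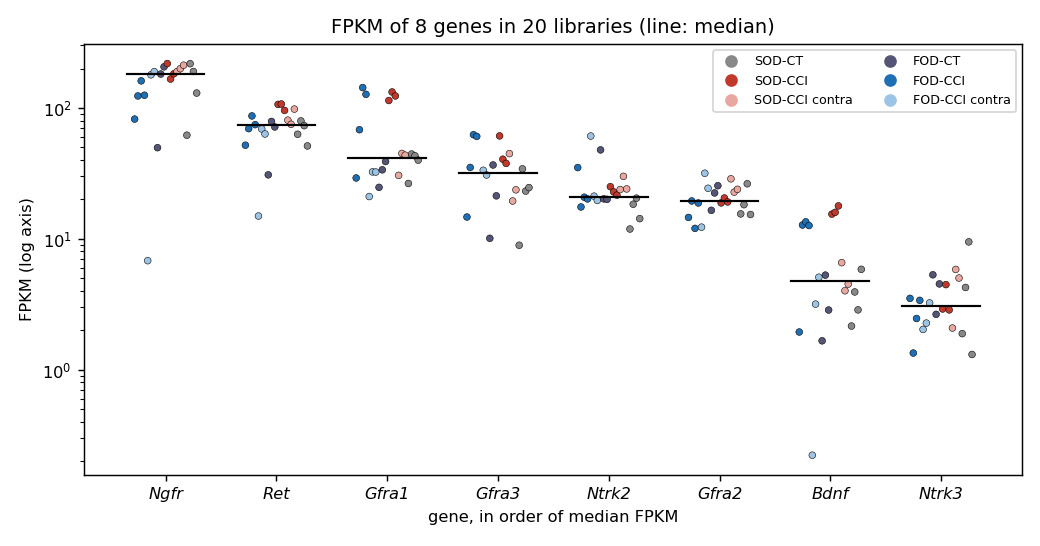
FPKM (log axis) of the 8 genes in 20 libraries, with each gene's median as a line and points colored by group. Ngfr and Ret lead, Bdnf and Ntrk3 lie lowest, and the Gfra3 value of 0 in FOD-CCI-contralateral replicate 1 is not drawn.

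Bdnf, the ligand gene, was highest in the injured ganglia. In SOD-CCI the 3 libraries had 96.2, 106 and 116 CPM, and in SOD-CT the 4 had 8.20, 25.4, 18.7 and 34.7 CPM. In FOD-CCI the 4 had 12.1, 76.4, 83.0 and 80.2 CPM, and in FOD-CT the 3 had 11.4, 30.9 and 18.3 CPM. SOD-CCI did not overlap SOD-CT, while the library labelled FOD-CCI replicate 1 lay within the range of FOD-CT and the other 3 lay above it. On the contralateral side Bdnf was 39.5, 24.9 and 28.9 CPM in SOD-CCI rats and 1.42, 19.6 and 30.6 CPM in FOD-CCI rats.

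Gfra1, which encodes the co-receptor that binds GDNF itself, followed the same order of groups. Its levels were 421, 524 and 478 CPM in SOD-CCI and 59.8, 170, 167 and 140 CPM in SOD-CT. They were 108, 242, 523 and 479 CPM in FOD-CCI and 100, 117 and 148 CPM in FOD-CT. Again SOD-CCI lay wholly above SOD-CT, and the library labelled FOD-CCI replicate 1 lay among the sham libraries. Contralateral ganglia had 109, 165 and 166 CPM in SOD-CCI rats and 79.8, 119 and 116 CPM in FOD-CCI rats.

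Gfra3 encodes the co-receptor for artemin. It was 128, 91.1 and 82.7 CPM in SOD-CCI against 11.5, 74.6, 51 and 49.1 CPM in SOD-CT, so these groups did not overlap. In FOD-CCI it was 30.8, 70.8, 129 and 130 CPM against 23.2, 72.3 and 46.1 CPM in FOD-CT, which overlapped. It was at 0 counts in FOD-CCI-contralateral replicate 1, the library with almost no nociceptor transcripts.

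Ret, which encodes the signaling kinase shared by all GFRα co-receptors, was 678, 730 and 637 CPM in SOD-CCI and 245, 526, 489 and 310 CPM in SOD-CT. In FOD-CCI it was 331, 425, 547 and 483 CPM and in FOD-CT 215, 472 and 470 CPM. The SOD groups did not overlap, and the FOD groups did. Gfra2, which encodes the co-receptor for neurturin, stayed between 27.1 and 90.1 CPM over all 20 libraries, with a mean of 58.0 ± 4.53 CPM (SD, n = 3) in SOD-CCI and 50.5 ± 22.0 CPM (SD, n = 4) in SOD-CT.

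Among the neurotrophin receptor genes, Ntrk2 was also higher in every SOD-CCI library (222 to 246 CPM) than in SOD-CT (71.4 to 211 CPM), while the FOD groups overlapped. It had a mean of 236 ± 12.8 CPM (SD, n = 3) in SOD-CCI and 151 ± 62.1 CPM (SD, n = 4) in SOD-CT. Its 3 highest libraries, at 616, 516 and 345 CPM, were the same 3 that carried spinal cord transcripts. All other libraries lay at or below 294 CPM. The part of the spinal cord transcripts in these Ntrk2 levels was not tested, and gene counts do not separate full-length TrkB from its truncated forms, which glia make.

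Ngfr had 724, 590 and 632 CPM in SOD-CCI and 273, 394, 528 and 422 CPM in FOD-CCI. It was lowest, at 23.2 CPM, in FOD-CCI-contralateral replicate 1 and next lowest, at 125 CPM, in SOD-CT replicate 1. These are the library with spinal cord transcripts in place of DRG transcripts and the library with the most muscle transcripts. Ntrk3 was the least counted member, at 3.33 to 28.8 CPM, and its lowest and highest values both came from SOD-CT.

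**Figure D2:**
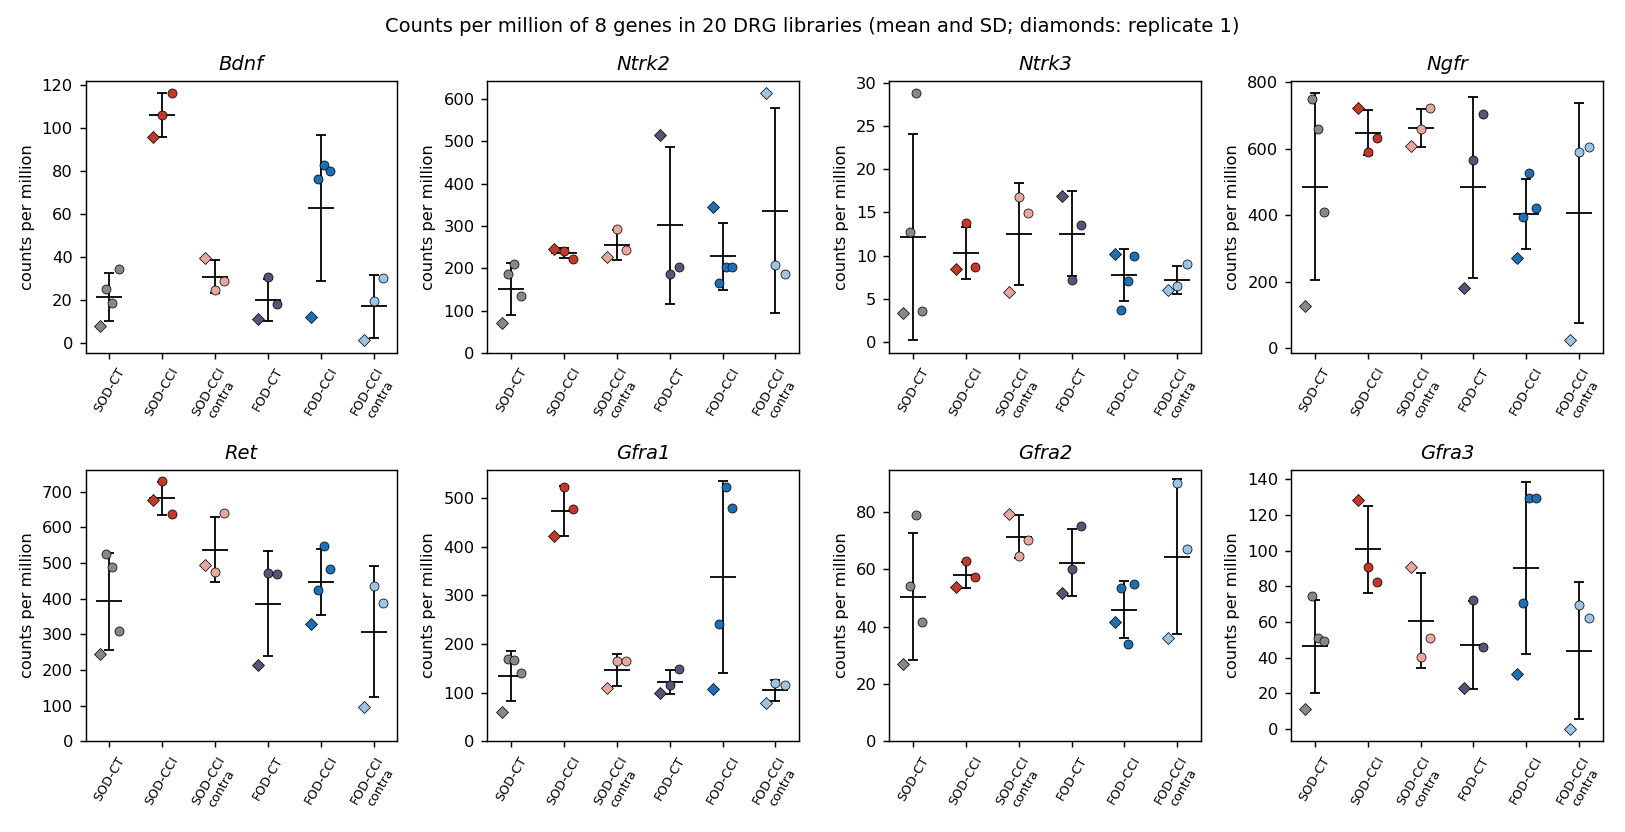
CPM of each gene in every library of the 6 groups, with bars for mean and SD and diamonds for replicate 1. Bdnf and Gfra1 stand highest in SOD-CCI and in 3 of the 4 FOD-CCI libraries, while the high Ntrk2 diamonds are the 3 libraries with spinal cord transcripts.

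The effect of injury on the left DRG was tested in one edgeR quasi-likelihood fit of the 14 left libraries over 14484 genes, which included all 8 members. A gene was called at an adjusted p of at most 0.1 (Benjamini-Hochberg over all genes tested) and a fold change of at least 1.2. Averaged over both diets, log2FC of CCI against CT was 1.91 for Bdnf (SE 0.40, adjusted p = 0.106, edgeR) and 1.60 for Gfra1 (SE 0.30, adjusted p = 0.101, edgeR), which are 3.75-fold and 3.04-fold differences. Both missed the threshold, as did every gene tested (0% called, 11.5% at an unadjusted p under 0.05, and 476 genes called by DESeq2). By unadjusted p, Gfra1 ranked 11 and Bdnf 38 of 14484. DESeq2's Wald test called both, with adjusted p of 5.57e-05 for Gfra1 and 0.00031 for Bdnf.

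Among the other receptors, log2FC was 0.99 for Gfra3 (95% interval 0.18 to 1.80, edgeR adjusted p = 0.341) and 0.44 for Ret (95% interval -0.0096 to 0.89, edgeR adjusted p = 0.445). It was 0.10 for Ntrk2 (-0.41 to 0.61), 0.053 for Ngfr (-0.65 to 0.75), -0.17 for Gfra2 (-0.54 to 0.21) and -0.46 for Ntrk3 (-1.35 to 0.42). Scaling libraries to 10 pan-neuronal genes instead of by TMM moved the median of all genes from -0.010 to -0.55. Ret was then at -0.032, Ngfr at -0.34 and Ntrk2 at -0.50, each still above that median. With this scaling no member was called averaged over diets, while Bdnf and Gfra1 were called in SOD rats, where 1265 of 14484 genes were. Over all 23 fits of the averaged comparison, the lowest log2FC was 1.46 for Bdnf and 1.07 for Gfra1. With 1 library left out at a time Ret stayed at 0.28 to 0.56, while Ntrk2 and Ngfr changed sign. The pan-neuronal genes summed to 15645 to 19226 CPM in SOD-CCI and to 4631 to 14518 CPM in SOD-CT, and their part in the differences was not tested. In bulk tissue a larger share of neurons and more RNA per neuron cannot be told apart.

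Without the library labelled FOD-CCI replicate 1, Gfra1 (log2FC 1.75, SE 0.21, edgeR adjusted p = 0.00356) and Bdnf (log2FC 2.08, SE 0.28, edgeR adjusted p = 0.00403) rose after CCI, with 3.54% of 14620 genes called and 2.34% called higher. Gfra3 then stood at 1.13 (edgeR adjusted p = 0.12). Leaving out SOD-CT replicate 1 and FOD-CT replicate 1 as well gave 3 members called higher, Bdnf at 1.81, Gfra1 at 1.58 and Gfra3 at 0.81 (edgeR adjusted p = 0.00138, 0.00138 and 0.057), where 4.34% of genes were called higher.

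The 4 muscle genes tested were lower in CCI than in CT, with a median log2FC of -8.75, and none was called (smallest edgeR adjusted p = 0.118). In a fit added after seeing the data, without all 5 left libraries above 1000 CPM of muscle or spinal cord genes (SOD-CT replicates 1 and 4, FOD-CT replicates 1 and 2 and FOD-CCI replicate 1), Bdnf was at 2.22, Gfra1 at 1.5 and Gfra3 at 0.99 (edgeR adjusted p = 0.000268, 0.00788 and 0.056). All 3 were called, where 3.34% of genes were called higher. FOD-CT then held 1 library, whose spread was taken to be that of the other groups.

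**Figure D3:**
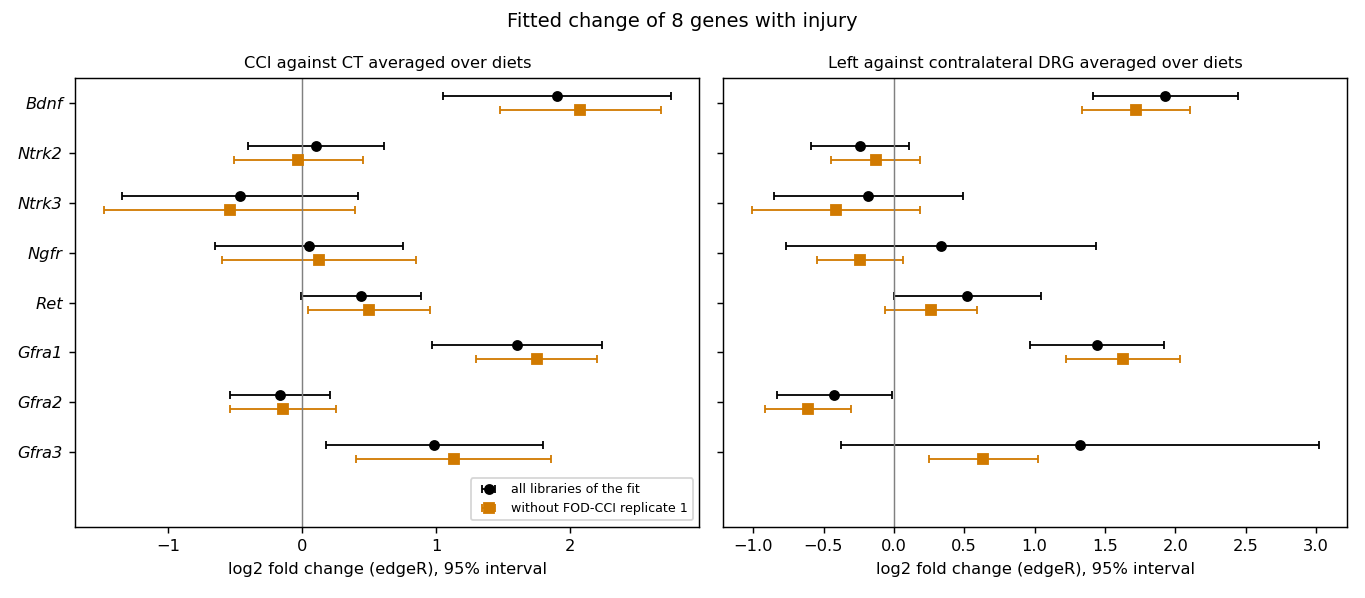
Fitted log2 fold changes with 95% intervals for CCI against CT (left panel) and left against contralateral DRG (right panel), with all libraries of the fit (circles) and without FOD-CCI replicate 1 (squares, both DRG of that rat left out in the right panel). Bdnf and Gfra1 lie well above 0 in all 4 fits, and the interval of Gfra3 in the right panel narrows most.

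Within each diet Bdnf and Gfra1 again had the largest log2FC of the 8 members. In SOD rats, CCI against CT gave log2FC of 2.17 for Bdnf and 1.71 for Gfra1 (SE 0.55 and 0.41, both edgeR adjusted p = 0.266), followed by 1.05 for Gfra3, 0.66 for Ret, 0.54 for Ntrk2, 0.35 for Ngfr, 0.075 for Gfra2 and -0.29 for Ntrk3, with 0% of genes called, 13.8% at an unadjusted p under 0.05 and 594 genes, Bdnf and Gfra1 among them, called by DESeq2. The levels of these 5 members did not overlap between the groups, which 11.8% of genes tested also showed in the higher direction. In FOD rats log2FC was 1.64 for Bdnf and 1.5 for Gfra1 (SE 0.57 and 0.43, edgeR adjusted p = 1 for each), and again 0% of genes were called, with 4.52% at an unadjusted p under 0.05 and 21 genes, none a member, called by DESeq2. The other 6 members ran from -0.64 for Ntrk3 to 0.93 for Gfra3, with -0.41 for Gfra2, -0.33 for Ntrk2, -0.25 for Ngfr and 0.22 for Ret. No member separated the FOD groups. Without the library labelled FOD-CCI replicate 1, Gfra1 was called in FOD rats (1.80, edgeR adjusted p = 0.049, with 0.294% of genes called), Bdnf was at 1.98 (edgeR adjusted p = 0.102), and both were called in SOD rats (edgeR adjusted p = 0.0722 for each, with 0.321% of genes called).

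**Figure D4:**
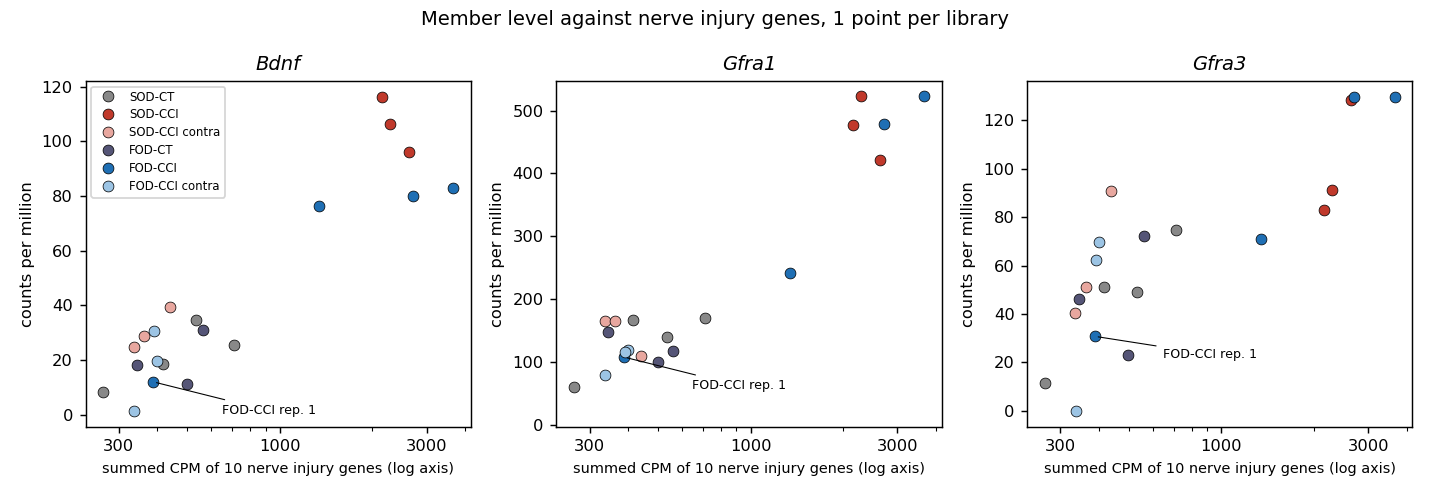
CPM of Bdnf, Gfra1 and Gfra3 against the summed level of 10 nerve injury genes (log axis), 1 point per library. The 6 ligated-side libraries with 1343 CPM or more of injury genes hold the 6 highest Bdnf and Gfra1 values, and the library labelled FOD-CCI replicate 1 lies among the shams.

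In all, 6 CCI rats gave both ganglia, so that the left DRG could be set against the uninjured right DRG of the same animal. These tests use the same injured libraries as the comparison with sham and are not independent of it. FOD-CCI replicate 4 had no right library and is not in this fit. Bdnf was higher on the left in 6 of 6 rats, with a log2FC of 1.93 (SE 0.23, edgeR adjusted p = 0.0159). Its largest ratio of left to right, 8.52, was in the rat of FOD-CCI replicate 1. The right library of that rat held spinal cord transcripts and 1.42 CPM of Bdnf, and its left library had nerve injury genes in the sham range. That rat therefore does not set an injured DRG clearly against an uninjured one. Gfra1 was also higher on the left in 6 of 6 rats, with 1.44 (SE 0.21, edgeR adjusted p = 0.034). Both were called, where 0.811% of 14549 genes were called higher and 0.962% in either direction (11.6% at an unadjusted p under 0.05), and 5.16% of genes were higher on the left in all 6 rats.

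These calls depended on single rats. Leaving out any 1 of the 3 SOD-CCI rats kept log2FC at 1.86 to 2.06 for Bdnf and 1.39 to 1.48 for Gfra1 and ended both calls. Without the rat as a block, edgeR adjusted p was 0.414 for Bdnf and 0.142 for Gfra1. Scaled to the pan-neuronal genes, Bdnf stayed called at 1.49 (edgeR adjusted p = 0.0617) and Gfra1 did not at 1.00 (edgeR adjusted p = 0.255).

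Gfra3 was higher on the left in 6 of 6 rats as well, but its log2FC of 1.32 had a 95% interval of -0.38 to 3.02, since its contralateral level in the rat of FOD-CCI replicate 1 was 0. In the rat of FOD-CCI replicate 2 its left level was only 1.02-fold the right. Gfra2 went the other way. It was lower on the left in 5 of 6 rats, with a log2FC of -0.42 (95% interval -0.83 to -0.016, edgeR adjusted p = 0.41). In SOD-CCI rats the left ganglia had 53.8, 62.8 and 57.3 CPM of Gfra2 and the right ganglia 79.4, 64.7 and 70.3 CPM, which did not overlap. In the lower direction 7.99% of genes did the same.

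Without the rat of FOD-CCI replicate 1, 4 members were called. Bdnf (1.72, edgeR adjusted p = 0.000998), Gfra1 (1.63, 0.00149) and Gfra3 (0.63, 0.0749) rose, and Gfra2 fell by 0.61 on the log2 scale (edgeR adjusted p = 0.0381). In that fit 4.32% of genes were called higher and 3.33% lower. Ret was at 0.26, Ngfr at -0.24, Ntrk2 at -0.13 and Ntrk3 at -0.41, none of them called. Ngfr changed sign from 0.33 in the fit of all 6 rats.

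**Figure D5:**
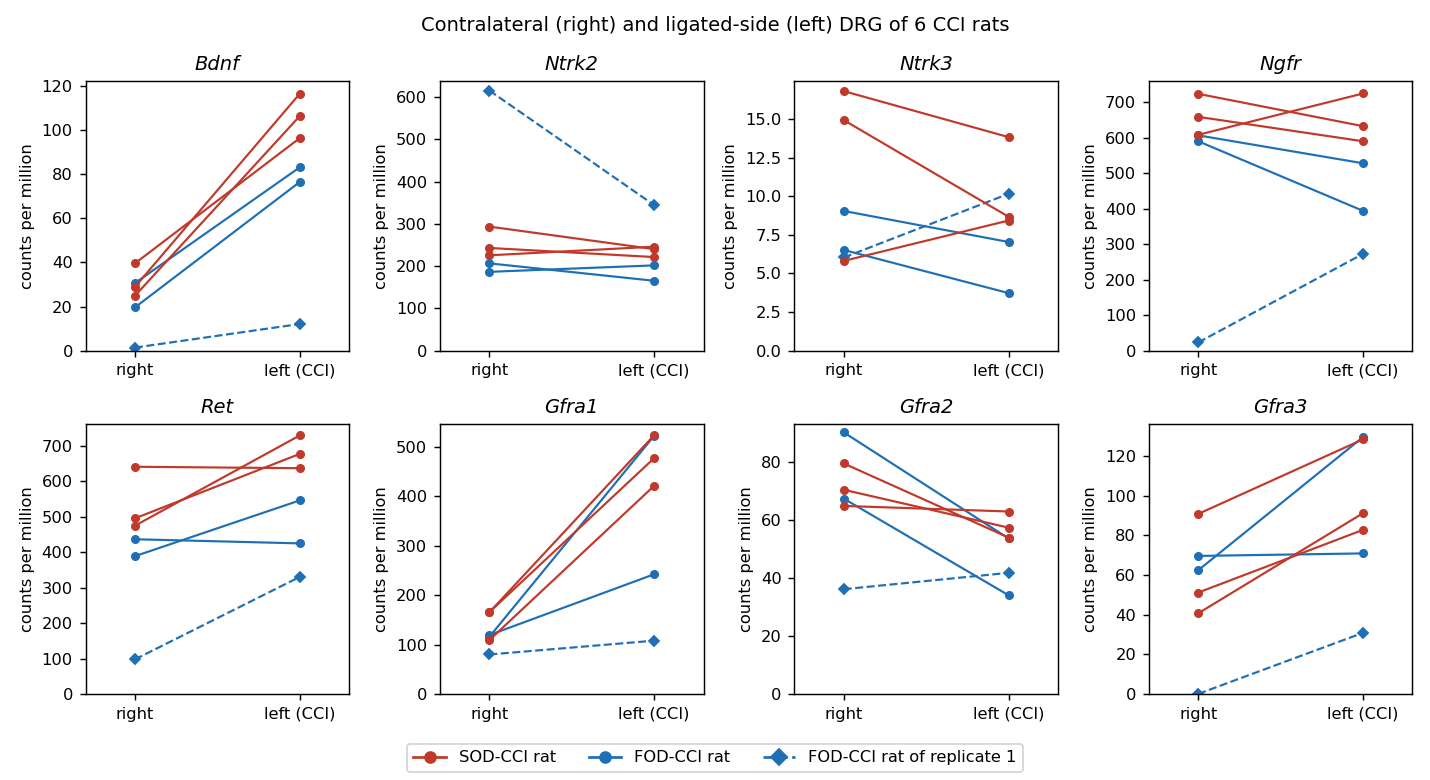
CPM in the right and left DRG of each of 6 CCI rats, with lines joining the ganglia of 1 rat. Bdnf, Gfra1 and Gfra3 are higher on the left in every rat, Gfra2 is lower on the left in 5 of 6, and the rat of FOD-CCI replicate 1 (dashed) has the lowest Bdnf and Gfra1 values on both sides.

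Taken per diet, the side difference of Bdnf was 1.75 in SOD-CCI rats and 2.11 in FOD-CCI rats (edgeR adjusted p = 0.134 and 0.28). That of Gfra1 was 1.66 and 1.22 (edgeR adjusted p = 0.134 and 0.522). Neither gene was called by edgeR in either diet, where 0.131% and 0.0137% of genes were (8.48% and 6.96% at an unadjusted p under 0.05). DESeq2 called both genes in each diet, among 472 and 264 genes. The 2 diets' side differences were then compared directly. They differed by 0.36 for Bdnf (95% interval -0.64 to 1.36) and by -0.44 for Gfra1 (-1.38 to 0.50), and 0% of genes were called, with 2.91% at an unadjusted p under 0.05 and 60 genes called by DESeq2. Without the rat of FOD-CCI replicate 1 both genes were called in each diet, with edgeR adjusted p of 0.00555 and 0.00838 in SOD-CCI rats (3.14% of genes called) and 0.0371 and 0.0603 in the 2 remaining FOD-CCI rats (0.914%). In that fit the side difference of Bdnf in FOD-CCI rats was 1.69, and the diets differed by -0.050 for Bdnf and -0.066 for Gfra1.

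No member passed the test for an effect of diet. In FOD-CCI against SOD-CCI, Bdnf, Ngfr and Ret did not overlap and were lower in FOD-CCI, as were 9.28% of genes tested. Their log2FC were -0.69 (95% interval -1.84 to 0.46), -0.62 (-1.60 to 0.36) and -0.55 (-1.18 to 0.085), and Gfra1 was at -0.42 (-1.30 to 0.45), none of them called by edgeR, with 0% of genes called, 5.4% at an unadjusted p under 0.05 and 2 genes called by DESeq2. Without the library labelled FOD-CCI replicate 1, Bdnf was at -0.34 (-1.20 to 0.51) and Gfra1 at -0.13 (-0.77 to 0.52). A difference of Bdnf between the diets of the size seen between CCI and CT lies outside that interval. The library left out held the lowest Bdnf value of FOD-CCI, however, so that leaving it out bears on this comparison itself. With it the interval reached -1.84, where CCI against CT was at 1.91. Without the 5 left libraries above 1000 CPM of muscle or spinal cord genes, edgeR called 399 genes between the diets after CCI, none of them a member, with Bdnf at -0.35 (-0.68 to -0.0081, edgeR adjusted p = 0.269).

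The diet by injury interaction, which asks whether CCI changed a gene differently on the 2 diets, was -0.54 for Bdnf (95% interval -2.17 to 1.10), -0.20 for Gfra1 (-1.44 to 1.03) and -0.87 for Ntrk2 (-1.88 to 0.14). No member was called, nor was any of the genes tested by edgeR (0%, with 5.01% at an unadjusted p under 0.05), and DESeq2 called 42 genes and no member. Without FOD-CCI replicate 1 the Gfra1 interaction was 0.089 (-0.79 to 0.97). In sham rats Ntrk2 was 0.88 higher on FOD (95% interval 0.17 to 1.60, edgeR adjusted p = 0.965), with 0% of genes called, 3.39% at an unadjusted p under 0.05 and 0 called by DESeq2, and was at 0.20 (-0.18 to 0.59) without SOD-CT, FOD-CT and FOD-CCI replicate 1. Without all 5 libraries above 1000 CPM of muscle or spinal cord genes it was at 0.059 (-0.40 to 0.51).

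Of 64 other genes of these pathways, 53 could be tested on the left side and 52 between sides. Several partner ligands were scarce in the ganglia. Gdnf reached at most 2 counts in any library, and Ntf3, Ntf4, Artn and Pspn had 10 counts in 5, 4, 7 and 8 of 20 libraries. Nrtn, which encodes neurturin, was counted throughout, at 1.11 to 21.2 CPM. Nrtn did not pass the test after CCI (-0.35) or between sides (0.15). Among further receptors, Gfra4 stayed at or below 1.46 CPM and Gfral had no counts.

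In CCI against CT, 0 of the 53 pathway genes were called by edgeR and 2, Vgf and Maged1, by DESeq2 (476 of 14484 genes). An edgeR unadjusted p under 0.05 was found for 5, all higher in CCI. Over all genes this held for 5.9% in the higher direction and 11.5% in either direction. The median log2FC was 0.16 against -0.010 over all genes. These 5 included Vgf, a neuropeptide precursor gene that neurotrophins induce, at 2.54 (edgeR adjusted p = 0.101), Maged1 at 0.84 and Sorcs2 at 0.63. Without FOD-CCI replicate 1, edgeR called 2 pathway genes higher and 1 lower, where 3.54% of all genes were called. Leaving out SOD-CT replicate 1 and FOD-CT replicate 1 as well gave 2 higher and 4 lower, where 1180 of 15177 genes were called. Between sides 2 of 52 were called by edgeR, where 0.962% of all genes were called in either direction. DESeq2 called Maged1 as well, where it called 790 of 14549 genes. Vgf rose (2.52, SE 0.26, edgeR adjusted p = 0.00924) and Sorl1, which encodes a sorting receptor of the Vps10p family, fell by 1.10 on the log2 scale (edgeR adjusted p = 0.0819). The median over the 52 was 0.034, against 0.027 over all genes. Without the rat of FOD-CCI replicate 1, edgeR called 3 pathway genes higher and 3 lower between sides. In that fit 4.32% of all genes were called higher and 3.33% lower. Of 9 nerve injury genes tested between sides, edgeR called 7 higher, with a median log2FC of 2.17, and 1 of 7 macrophage genes, with a median of 1.36. DESeq2 called all 9 nerve injury genes and, of the macrophage genes, Cx3cr1, Cd68, Aif1, Csf1r and Cd163. The 8 macrophage genes summed to 99.6 to 175 CPM in SOD-CCI and 14.8 to 50.3 CPM in the contralateral DRG of the same rats. In the rats of FOD-CCI replicates 1, 2 and 3 they summed to 88.3, 179 and 141 CPM on the left. On the right these rats had 162, 80.4 and 101 CPM, so the rat of replicate 1 was lower on the left. FOD-CCI replicate 4, without a right library, had 324 CPM. The part of the macrophage genes in the results for the members was not tested.

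The genes whose log2 CPM went most closely with each member were listed over all 20 libraries among 14435 genes, as a description, since the libraries share tissue content and depth. For Gfra1 they were Flrt3 (r = 0.96), Lcp1 (0.95) and Gng2 (0.94), and for Bdnf Tubb2b (0.94), Itga7 (0.93) and Lcp1 (0.93). Over the 16 libraries without SOD-CT replicate 1 and the 3 with spinal cord transcripts, Flrt3 kept r = 0.97 and Tubb2b 0.86. Bdnf and Gfra1 themselves had r = 0.83 over 20 and 0.86 over 16 libraries. For Ret they were Clgn, Osbpl3 and Duox2 (0.97, 0.97 and 0.96), for Gfra2 Ldb2, Atp1b3 and Gprc5c (0.84, 0.83 and 0.83), and for Ntrk3 Srgap3, Bace1 and Gbf1 (0.88, 0.85 and 0.85). For Gfra3 they were Asic3, Sytl3 and Prph (0.99, 0.98 and 0.98) and for Ngfr Cyp4f39, Fam189b and Susd2 (each 0.98). For Ntrk2 they were Gprasp1, Gpr37l1 and Tspyl2 (0.95, 0.94 and 0.94). Over the 16 libraries r with these genes, in the order named, was 0.44, 0.63 and 0.91 for Gfra3 and 0.68, 0.89 and 0.79 for Ngfr. It was 0.74, 0.76 and 0.79 for Ntrk2 and 0.82, 0.85 and 0.74 for Ret. The likeness of Gfra3 to Asic3 thus leaned on the 4 libraries left out, and that to Prph did so less.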

How the data were processed

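Poly(A) RNA of rat DRG was sequenced, and the authors deposited raw counts per gene beside FPKM values. Per the labels, fastp, HISAT2 and featureCounts 1.5.0-p3 were used. Genome build, strand setting and treatment of multi-mapped reads are not given in the sources used here. FPKM deposited by the authors served only to compare levels between genes. Replicates were separate rats. Counts were tested with edgeR 4.0.16 (TMM, quasi-likelihood, two-sided, R 4.3.3) over genes reaching 10 counts in 90% of the libraries (13 of 14 left, or 11 of 12 of both sides), adjusted by Benjamini-Hochberg. Left and right DRG were fitted with the rat as a block. Library names give the same rat number for both sides, and deviations of the 2 ganglia of a rat correlated at 0.113 to 0.43 in 6 of 6 rats. Alternatives were DESeq2 1.42.0, other scalings, no filter, other blocks, fits of only the groups compared, and libraries left out. Fits were tested on simulated data without libraries of other tissue. For CCI against CT averaged, 41 of 99 2-fold and 82 of 93 4-fold changes were called, and 19 of 142 calls were wrong. For left against contralateral DRG averaged, 55 of 98 and 88 of 97 were called, and 23 of 166 calls were wrong. Members and gene lists were chosen with earlier results of these data known. All 8 members, pathway ligands and receptors (some are not reported here), called pathway genes or the 3 with the smallest p, and the 3 genes most like each member are named. Likeness over 16 libraries and the fit without 5 libraries were added after seeing the data. Precision rests on the number of rats.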

Additional observations from a re-analysis of the deposited data

Results flagged for a closer look

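In 16 groups of 4 libraries (the 8 members in SOD-CT and in FOD-CCI), 1 value stood apart from the rest of its group by Dixon's test, which chance does in about 1 of 20 groups. Bdnf was 12.1 CPM in the library labelled FOD-CCI replicate 1, where the nearest of the other FOD-CCI libraries had 76.4 CPM, and this gap was 0.906 of the range of the group. The same library had 388 CPM of nerve injury genes and 2919 CPM of spinal cord genes, and the part of either in the low Bdnf value was not tested.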

How the results depend on the processing

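Counts are of genes called in either direction. DESeq2's Wald test on the same genes called 594 in SOD-CCI against SOD-CT, 21 in FOD-CCI against FOD-CT, 476 in CCI against CT averaged over diets, 2 in FOD-CCI against SOD-CCI, 42 in the interaction, 472, 264 and 790 between sides in SOD-CCI, in FOD-CCI and averaged, and 60 in the comparison of side differences, where edgeR called 0, 0, 0, 0, 0, 19, 2, 140 and 0. With DESeq2's size factors in edgeR, CCI against CT averaged gave 24. Without the filter on low counts it gave 224, and the side comparisons gave 220, 61 and 456, with 3 for their difference. Scaling to pan-neuronal genes gave 1265 in SOD-CCI against SOD-CT and 4, 0 and 83 between sides. Without SOD-CT, FOD-CT and FOD-CCI replicate 1, the counts were 200 in SOD, 526 in FOD and 1180 averaged. Without the 5 left libraries above 1000 CPM of muscle or spinal cord genes they were 109, 272 and 942, with 399 in FOD-CCI against SOD-CCI. The cause of these changes was not tested.

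Leaving out 1 library at a time gave 0 to 47 in SOD-CCI against SOD-CT, 0 to 43 in FOD-CCI against FOD-CT and 0 to 517 averaged, each highest without FOD-CCI replicate 1. The averaged count was also 111, 92, 90 and 31 without SOD-CT replicates 1 and 2, FOD-CT replicate 1 and FOD-CCI replicate 2. Leaving out 1 rat gave 0 to 471 between sides in SOD-CCI, 0 to 137 in FOD-CCI and 8 to 1146 averaged, again highest without FOD-CCI replicate 1. The averaged count was 8, 11 and 11 without SOD-CCI replicates 1, 2 and 3 and 40 without FOD-CCI replicate 3. Both diet comparisons, the interaction and the comparison of side differences stayed at 0 in each of these fits. Fits of only the groups compared also called 0.

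With the replicate number as a block on the left side, 1 gene was called in SOD-CCI against SOD-CT and 1 averaged, and no member's call changed. Same-numbered libraries of different rats correlated at -0.269 to 0.429 (median 0.016, 6 of 19 pairs over 0.1). The highest value was that of FOD-CT replicate 1 with FOD-CCI replicate 1, which both held spinal cord transcripts. The library with the most muscle transcripts and those with spinal cord transcripts all have replicate number 1. Whether same-numbered libraries shared a step of handling cannot be told from these values. Without the block of the rat, 0, 0 and 10 genes were called between sides.

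Signs turned only in members that were not called. With pan-neuronal scaling, which moved the median of all genes to between -0.68 and 0.25, log2FC was -0.080 for Ntrk2 in SOD, -0.073 for Ret in FOD, and -0.34, -0.032 and -0.50 for Ngfr, Ret and Ntrk2 averaged, while Ngfr between sides was -0.064 and Bdnf was -0.095 in the comparison of side differences. Without the block of the rat Ngfr between sides was -0.065. Without the 3 libraries Ngfr averaged was -0.22 and the Gfra1 interaction 0.083, and without the 5 they were -0.36 and 0.019. Leaving out 1 library or rat turned 13 further values, in ranges of -0.092 to 0.47 for Ret and -0.60 to 0.22 for Ntrk2 in FOD, -0.15 to 0.22 for Ngfr and -0.029 to 0.38 for Ntrk2 averaged, -0.49 to 0.089 for Gfra1 and -0.85 to 0.00091 for Bdnf in the interaction, -0.24 to 0.80 for Ngfr between sides and -0.050 to 0.77 for Bdnf in the comparison of side differences. With 1 library left out, edgeR adjusted p for CCI against CT averaged ranged from 0.00356 to 0.262 for Gfra1 and from 0.00403 to 0.298 for Bdnf. Depth did not limit the members, of which the least counted, Ntrk3, had at least 76 counts, apart from Bdnf with 32 and Gfra3 with 0 in FOD-CCI-contralateral replicate 1.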
